A study of Mus musculus with 23 samples.

Results

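The genes described are Tmem119, Olfml3, Selplg, Slc2a5, Crybb1, Ltc4s and Sparc, 7 of the 22310 genes named in a count table of bulk mouse brain RNA. They were chosen by symbol as surface, secreted and enzyme genes of homeostatic microglia, and all 7 were among the 16209 genes tested. Sparc was set apart from the other 6 at the outset because other brain cells also make it. The mice were of the C57BL/6J strain and of 2 genotypes: wild type (WT) and Csf1R-G793A, in which the receptor for colony-stimulating factor 1 has a substitution. The mice ate control chow, chow with PLX3397 at 290 mg/kg, or chow with PLX5622 at 1200 mg/kg, for 14 days. PLX3397 and PLX5622 are small-molecule inhibitors of the kinase of this receptor. The series set the inhibitors against control chow in WT and asked whether the G793A substitution prevents their effects. Group sizes were 3 libraries for WT on control chow and 4 for each of WT on PLX3397, WT on PLX5622, G793A on control chow, G793A on PLX3397 and G793A on PLX5622. The labels give no age, sex, zygosity or brain region, and do not say whether each library came from a separate mouse. The p-values therefore measure the spread between these samples, which may be technical.

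Microglia are the resident macrophages of the brain, and they depend on signalling through CSF1R for survival. In the healthy brain they carry a set of transcripts that set them apart from neurons and other glia and, in part, from macrophages that enter from the blood. Tmem119 codes for a membrane protein used as a microglia marker. Selplg codes for PSGL-1, the glycoprotein ligand of the selectins. Slc2a5 codes for the fructose transporter GLUT5, which in brain is used as a microglia marker. Olfml3 codes for a secreted glycoprotein with an olfactomedin domain. Ltc4s codes for leukotriene C4 synthase, the enzyme that joins leukotriene A4 to glutathione. Crybb1 codes for a beta crystallin, a structural protein of the lens that is also transcribed in microglia. Sparc codes for a secreted matricellular protein that astrocytes and endothelial cells make as well as microglia.

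Start-site sequence was at hand for 5 of the 7 genes (RefSeq, GRCm38.p6), and 3 windows are printed because the results turn on the contrast among these genes: in WT on the inhibitors Crybb1 fell, Ltc4s missed the threshold with values below 0, and Sparc overlapped its control level. Each window runs from 250 bases before to 50 bases after the annotated start, in the direction of transcription. They lie at chr5:112255570-112255869 on the plus strand for Crybb1, at chr11:50238483-50238782 on the minus strand for Ltc4s and at chr11:55420031-55420330 on the minus strand for Sparc. Capitals mark a TATAAA match in Crybb1 and an AGGAAGT match, a sequence bound by PU.1 and other ETS factors, in Ltc4s.
Crybb1: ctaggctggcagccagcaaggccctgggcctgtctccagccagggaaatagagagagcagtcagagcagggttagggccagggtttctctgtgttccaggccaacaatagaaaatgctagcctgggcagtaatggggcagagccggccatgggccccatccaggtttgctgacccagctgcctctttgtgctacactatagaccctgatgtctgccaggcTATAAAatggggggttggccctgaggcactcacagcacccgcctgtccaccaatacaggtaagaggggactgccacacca
Ltc4s: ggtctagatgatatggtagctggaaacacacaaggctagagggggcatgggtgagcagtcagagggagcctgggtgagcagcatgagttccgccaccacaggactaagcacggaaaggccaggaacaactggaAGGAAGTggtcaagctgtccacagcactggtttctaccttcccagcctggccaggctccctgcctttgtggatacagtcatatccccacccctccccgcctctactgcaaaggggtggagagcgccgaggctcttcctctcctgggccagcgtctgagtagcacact
Sparc: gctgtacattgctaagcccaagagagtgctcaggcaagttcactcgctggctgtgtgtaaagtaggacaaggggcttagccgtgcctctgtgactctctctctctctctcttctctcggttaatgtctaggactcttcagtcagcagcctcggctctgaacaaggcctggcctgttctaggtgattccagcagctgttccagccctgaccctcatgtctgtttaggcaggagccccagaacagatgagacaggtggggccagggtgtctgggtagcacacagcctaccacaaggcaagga
Both strands of all 5 windows were searched for 4 motifs. TATAAA was found in Crybb1 alone, 30 bases before the start, and is present in 13.6% of 32851 promoter windows of this length. AGGAAGT was found in Ltc4s alone, 117 bases before the start, and is present in 9.35% of the windows. TGTGGT, a RUNX sequence, was found in Slc2a5, Ltc4s and Sparc and in 16.8% of all windows. The short core GGAA, which is contained in AGGAAGT, was found in 4 of the 5 (not in Slc2a5) and in 96% of all windows. These are letter matches in a window and show no binding.

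Each library held 26.3 to 48.2 mega-counts. Levels below are CPM, counts divided by the library total in mega-counts, with TMM factors that adjust library totals for composition. They are levels in bulk tissue, in which fewer cells of a type and less RNA per cell cannot be told apart. A pair of libraries stood apart from the rest by a cerebellar transcript, Cbln3, at 30.8 CPM in WT PLX5622 replicate 1 and 221 CPM in G793A PLX5622 replicate 2, against 0.594 to 1.73 CPM in the other 21. WT PLX5622 replicate 1 was also high in Prl, a pituitary transcript, at 66.1 CPM, against at most 6.56 CPM in any other library. G793A control replicate 3 stood apart by transcript length: its 607 genes with transcripts of at most 1000 bases had a median 0.38 log2 units above their mean over all libraries, against -0.10 to 0.18 in the other libraries. Csf1r, the gene of the targeted receptor, was at 93.8 ± 1.23 CPM (SD, n = 3) in WT control and 81.4 ± 4.69 CPM (SD, n = 4) in G793A control. It was at 24.8% of the WT control mean in WT on PLX3397 and 13% in WT on PLX5622. As a check of the labelled tissue, summed markers of neurons lay between 5758 and 7235 CPM in all 6 groups.

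Per kilobase of the longest coding transcript, Sparc was by far the most abundant of the 7 in WT control brain, at 170 CPM per kb. Its mean CPM there without division by length, 390, was at the 97.8th percentile of the genes tested. Selplg followed at 14.0 CPM per kb and Tmem119 at 8.98. Olfml3 was at 3.96, Crybb1 at 3.11 and Ltc4s at 2.69 CPM per kb, and Slc2a5 was lowest at 1.48. The SDs over the 3 control libraries were 0.55 CPM per kb each for Crybb1 and Ltc4s, so these neighbours in the order do not differ beyond their spread. Before division by length, Ltc4s and Crybb1 had the fewest counts, at 1.92 and 2.74 CPM in WT control, against 20.1 to 25.9 for Tmem119, Olfml3 and Selplg. Olfml3 was at 21.6 CPM and Tmem119 at 20.1. The lower place of Olfml3 per kb thus rests on the length used, 5465 bases against 2242. Which transcripts were present was not examined.

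In WT brain both inhibitors lowered the surface genes Tmem119, Selplg and Slc2a5, the secreted gene Olfml3 and the crystallin Crybb1. Between 11.2% and 33.6% of the control level was left. Ltc4s was at 48.2% and 53.4% of its control mean and Sparc at 86.2% and 88.6%, and neither passed the test. On PLX3397, 5 of the 7 passed as lower and none as higher, where 1.49% of all genes tested passed as lower. On PLX5622, again 5 of 7 passed as lower, where 1.59% of all genes did. The median log2 fold change over the 7 was -1.96 on PLX3397 and -2.34 on PLX5622, beside 0.01 over all genes in each.

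**Figure D1:**
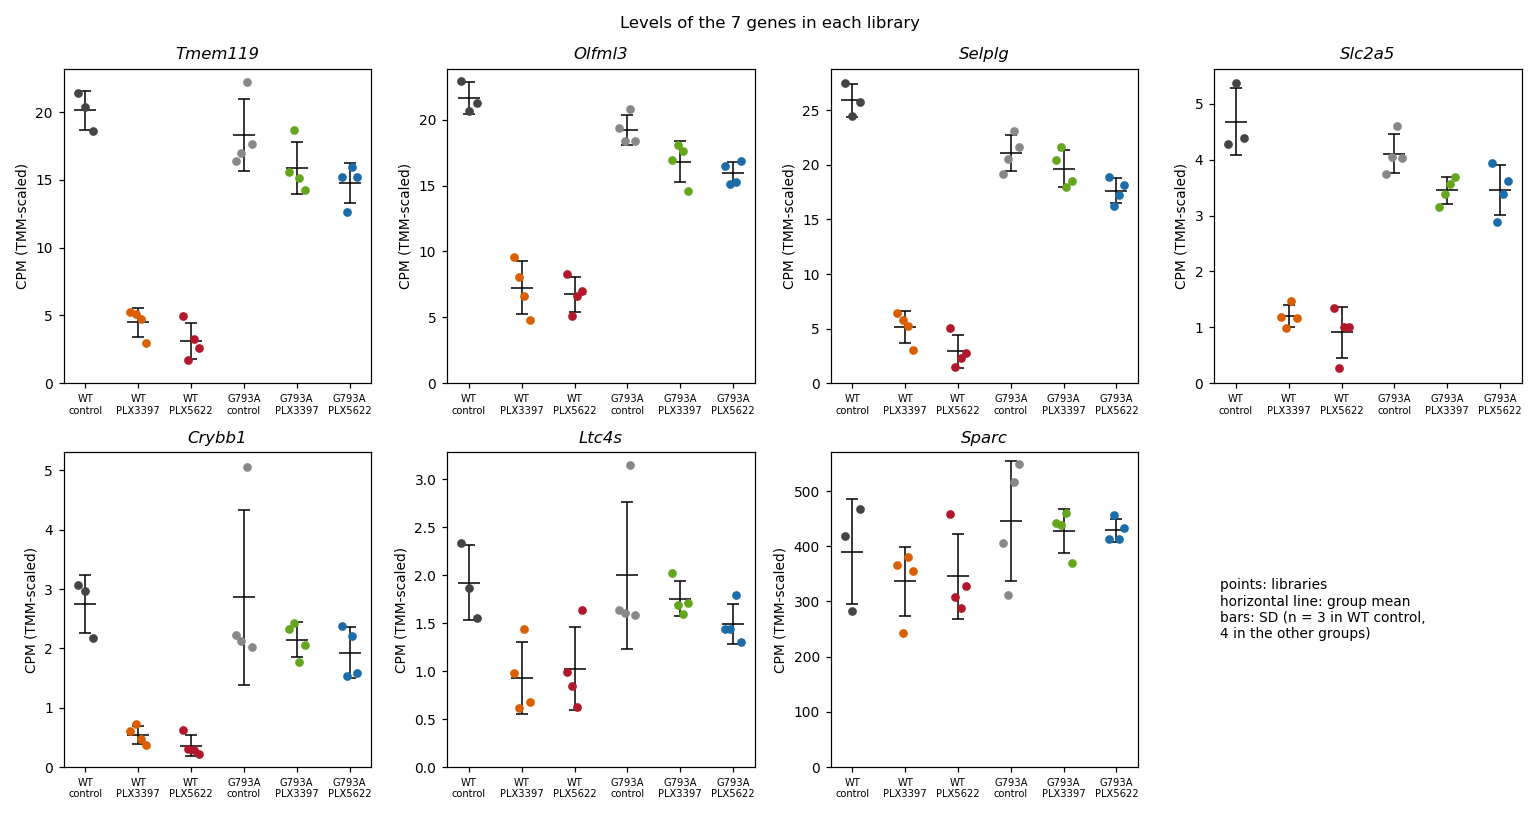
Level of each of the 7 genes in each of the 23 libraries (vertical axis, TMM-scaled CPM, starting at 0) in the 6 groups (horizontal axis); points are libraries, horizontal lines group means and bars SD. For Tmem119, Olfml3, Selplg, Slc2a5 and Crybb1, all 8 libraries of WT mice on an inhibitor lie below all libraries of the other 4 groups, while the Sparc points overlap across groups.

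Tmem119 was at 21.4, 20.4 and 18.6 CPM in the 3 WT control libraries. It was at 5.22, 5.07, 4.73 and 2.94 CPM on PLX3397 and at 4.93, 1.74, 3.24 and 2.58 CPM on PLX5622. No inhibitor library came near a control library. The log2 fold change was -2.16 ± 0.21 (SE; edgeR quasi-likelihood test, adjusted p = 7.16e-07) on PLX3397 and -2.67 ± 0.21 (adjusted p = 2.37e-08) on PLX5622.

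Selplg, the selectin ligand, lost the largest share on PLX5622. Its control libraries were at 27.5, 24.5 and 25.7 CPM. On PLX3397 they were at 6.45, 5.80, 5.23 and 3.08 CPM, and on PLX5622 at 5.01, 1.50, 2.33 and 2.78 CPM. The groups did not overlap control in either case. The log2 fold changes were -2.33 ± 0.22 (edgeR adjusted p = 7.81e-07) and -3.13 ± 0.23 (adjusted p = 1.43e-08), the latter a level 8.91-fold lower. Tmem119 and Selplg are neighbouring genes on mouse chromosome 5 (RefSeq, GRCm38).

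Slc2a5, the fructose transporter, was a lower-abundance gene with the same separation. It was at 4.28, 5.38 and 4.38 CPM in control, at 1.19, 0.993, 1.47 and 1.16 CPM on PLX3397, and at 1.35, 0.272, 1.01 and 1.00 CPM on PLX5622. WT PLX5622 replicate 2 was the lowest library, 4.96-fold under the highest of its group. The log2 fold changes were -1.96 ± 0.23 (edgeR adjusted p = 4.77e-06) and -2.34 ± 0.24 (adjusted p = 3.14e-07).

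Olfml3, the secreted olfactomedin-like protein, also fell. Control libraries were at 23, 20.7 and 21.3 CPM, PLX3397 libraries at 9.56, 8.05, 6.63 and 4.81 CPM, and PLX5622 libraries at 8.29, 5.07, 6.61 and 6.99 CPM. The groups were again apart from control, with 33.6% and 31.2% of the control mean left. The log2 fold changes were -1.58 ± 0.15 (edgeR adjusted p = 4.27e-07) and -1.68 ± 0.15 (adjusted p = 6.53e-08).

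Crybb1, the lens crystallin, was at 3.07, 2.97 and 2.18 CPM in control. It was at 0.611, 0.725, 0.470 and 0.368 CPM on PLX3397 and at 0.634, 0.306, 0.283 and 0.229 CPM on PLX5622. All 8 inhibitor libraries were below the lowest control library. The log2 fold changes were -2.32 ± 0.32 (edgeR adjusted p = 5.54e-05) and -2.88 ± 0.34 (adjusted p = 3.72e-06), a level 5.04-fold and 7.55-fold lower.

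Ltc4s, leukotriene C4 synthase, was lower in most inhibitor libraries without passing the test. Its control libraries were at 2.34, 1.87 and 1.56 CPM. On PLX3397 it was at 0.978, 0.617, 1.44 and 0.679 CPM, all below control, and on PLX5622 at 0.992, 0.851, 0.629 and 1.63 CPM, where replicate 4 lay within the control range. The log2 fold changes were -1.05 ± 0.30 (edgeR adjusted p = 0.0974) and -0.89 ± 0.30 (adjusted p = 0.225), with 95% intervals of -1.67 to -0.43 and -1.51 to -0.28. The call changed with the tool and with single libraries. On PLX3397 it passed in DESeq2 on all libraries (-1.05, adjusted p = 0.0485). In edgeR, without WT PLX3397 replicate 3 the first was -1.34 (adjusted p = 0.0224), and without WT PLX5622 replicate 4 the second was -1.21 (adjusted p = 0.0430). Ltc4s overlaps an antisense gene in the GENCODE annotation, and no source used here says whether counting used strand, so its level is uncertain.

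Sparc was at 419, 284 and 468 CPM in WT control, at 366, 243, 380 and 356 CPM on PLX3397 and at 459, 308, 288 and 329 CPM on PLX5622. The 3 groups overlapped. The log2 fold changes were -0.22 ± 0.20 (edgeR adjusted p = 0.852) and -0.17 ± 0.20 (adjusted p = 0.928). Their 95% intervals, -0.63 to 0.20 and -0.59 to 0.24, leave out a fall as large as that of Olfml3. Without WT control replicate 2, the lowest control library, the values were -0.40 and -0.36, and without WT PLX5622 replicate 1, which held the cerebellar transcript, the second was -0.34. Leaving out other libraries brought the values as near to no change as -0.06 on PLX3397 and -0.02 on PLX5622. None of these passed.

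Ranges entirely below control, a count that does not use the model, held for 6 of the 7 on PLX3397 (6.12% of all genes) and 5 of 7 on PLX5622 (5.26% of all genes). The exceptions were Sparc in both and Ltc4s on PLX5622. Libraries within a group varied in a partly shared way. WT PLX5622 replicate 1 was the highest of its group for every gene but Ltc4s, and replicate 2 was the lowest for Tmem119, Olfml3, Selplg and Slc2a5. WT PLX3397 replicate 4 was the lowest of its group for Tmem119, Olfml3, Selplg and Crybb1.

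**Figure D2:**
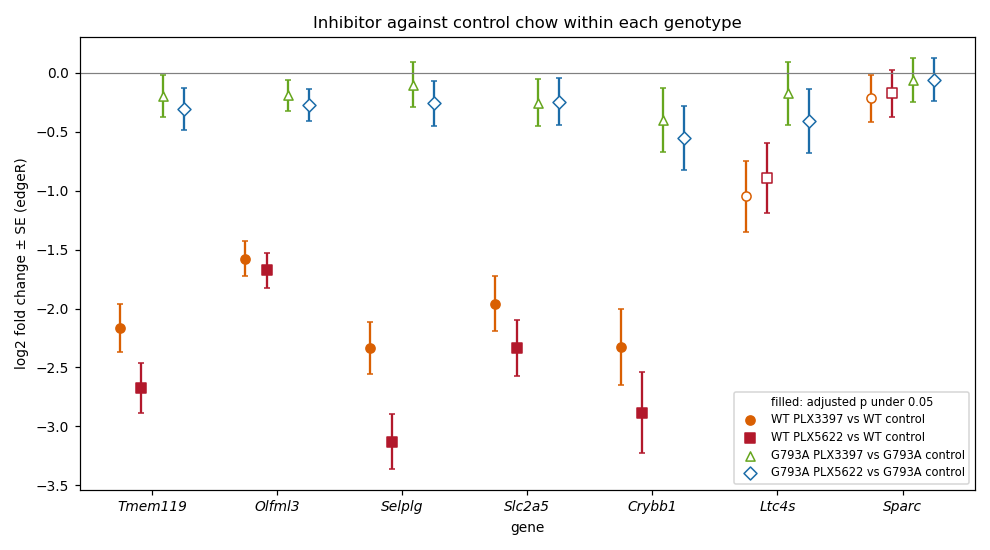
Log2 fold change (vertical axis, edgeR estimate with bars of 1 SE) of each gene (horizontal axis) for inhibitor against control chow within WT and within G793A; filled symbols passed an adjusted p of 0.05. The filled WT symbols lie between -3.13 and -1.58, the G793A symbols between -0.55 and -0.06, and the Sparc values in WT at -0.22 and -0.17.

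The contrast between Sparc and each of the other genes was also read within each library, as the log2 ratio of their CPM (0.1 added to each). The Sparc to Tmem119 ratio was 4.24 ± 0.43 (SD, n = 3) in WT control, 6.21 ± 0.54 (n = 4) on PLX3397 and 6.82 ± 0.44 (n = 4) on PLX5622. Every inhibitor library had a higher ratio than every control library. Against Selplg the ratio was higher by 2.16 and 3.07 log2 units, against Crybb1 by 1.96 and 2.51, against Slc2a5 by 1.68 and 2.23, and against Olfml3 by 1.40 and 1.52. Against Ltc4s it was higher by 0.82 and 0.73. The 22 ratio tests, of Sparc and of Tmem119 to the others, were exact two-sided permutation tests, and with 3 against 4 libraries the smallest p they allow is 0.0286. That value was reached by 9 of the 12 Sparc ratios, but after Benjamini-Hochberg adjustment over the 22 tests it becomes 0.0524, so none passed 0.05. The other 3 were Olfml3 on PLX3397 (exact p = 0.0571, adjusted 0.0838) and Ltc4s on PLX3397 and PLX5622 (exact p = 0.0857 and 0.114).

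**Figure D3:**
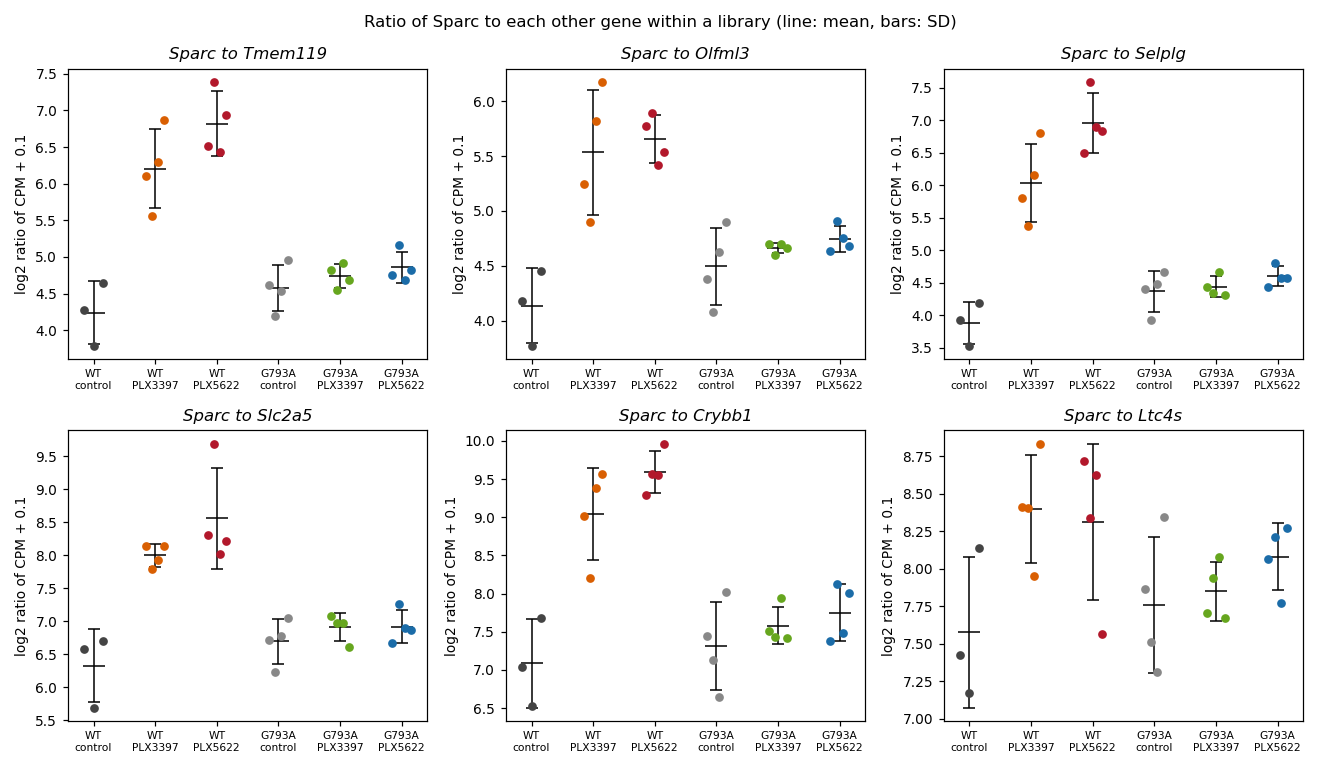
Log2 ratio of Sparc to each of the other 6 genes within a library (vertical axis, 0.1 CPM added to both; the axes do not start at 0) in the 6 groups; points are libraries, lines means and bars SD. Ratios in WT on either inhibitor lie above every library of the other groups for Tmem119, Selplg, Slc2a5 and Crybb1, meet the highest G793A library for Olfml3, and overlap for Ltc4s.

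Apart from Sparc, each of the other genes was set against Tmem119. Its log2 ratio to Olfml3 moved by -0.57 on PLX3397 and -1.06 on PLX5622 (exact permutation p = 0.0286 in each, adjusted 0.0524), short of the threshold after adjustment. The ratio to Ltc4s moved by -1.15 (exact p = 0.0571) and -1.84 (exact p = 0.0286). The ratio to Selplg moved by 0.19 and 0.49, the ratio to Slc2a5 by -0.29 and -0.34, and the ratio to Crybb1 by -0.01 and -0.07. The ratio to Crybb1 had exact p-values of 0.943 and 0.914.

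In mice with the G793A substitution on control chow, the 7 genes were close to their WT levels. None passed, and none of the 16209 genes did in edgeR (0% called; 1803 at an unadjusted p under 0.05, and 0 in DESeq2 and limma-voom). Without G793A control replicate 2 the count over all genes was 375, and none of the 7 was among them. Selplg was at 19.1, 20.5, 23.1 and 21.6 CPM, all below the lowest WT control library (24.5), with a log2 difference of -0.30 ± 0.20 (edgeR adjusted p = 0.592). Ranges below WT control were found for 2.91% of all genes here. Tmem119 (16.4, 17, 22.2 and 17.6 CPM), Olfml3 (19.4, 18.4, 20.8 and 18.4 CPM) and Slc2a5 (3.75, 4.05, 4.6 and 4.03 CPM) overlapped WT control, with log2 differences of -0.14, -0.17 and -0.19. Sparc was at 405.8, 312, 516 and 550 CPM, a log2 difference of 0.19 ± 0.20.

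Crybb1 and Ltc4s each had 1 high library in this group. Crybb1 was at 2.23, 2.13, 5.06 and 2.02 CPM and Ltc4s at 1.64, 1.61, 3.15 and 1.59 CPM, with replicate 3 high in both. That is the library in which short transcripts were high, and the longest coding transcripts of Crybb1 and Ltc4s are 882 and 716 bases, the shortest of the 7. The differences from WT control were 0.05 and 0.04. They became -0.15 and -0.17 with the length trend removed and -0.36 and -0.25 without replicate 3. The part of transcript length in these values was not tested.

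When G793A mice ate an inhibitor, the 5 genes that fell in WT stayed at 68.1% to 79.0% of the WT control level. On PLX3397, Tmem119 was at 15.6, 18.7, 15.1 and 14.3 CPM, Selplg at 20.4, 21.7, 18 and 18.6 CPM, and Olfml3 at 16.9, 18.1, 17.7 and 14.6 CPM. On PLX5622, Tmem119 was at 15.2, 12.6, 16 and 15.2 CPM, Selplg at 18.9, 16.2, 17.2 and 18.1 CPM, and Olfml3 at 16.5, 15.1, 15.2 and 16.9 CPM. Every one of these libraries lay above every WT library on the same inhibitor, as 3.78% of all genes did on PLX3397 and 2.49% on PLX5622. Slc2a5 ranged from 2.88 to 3.94 CPM and Crybb1 from 1.53 to 2.43 CPM over the 8 libraries, also apart from WT on inhibitor.

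Set against WT control, none of the 7 passed in G793A on PLX3397 (0.00617% of genes called, 1 gene) or on PLX5622 (0% called). At an unadjusted edgeR p under 0.05 were 1 of the 7 (Olfml3) and 1173 of all 16209 genes on PLX3397. On PLX5622 these were 3 of the 7 (Tmem119, Olfml3 and Selplg) and 1095 of all genes. Values of 6 of the 7 were below 0 on each inhibitor. On PLX3397 the log2 differences were -0.34 for Tmem119, -0.36 for Olfml3, -0.40 for Selplg, -0.44 for Slc2a5, -0.35 for Crybb1 and -0.13 for Ltc4s, with Sparc at 0.13. On PLX5622 they were -0.45, -0.44, -0.55, -0.43, -0.50 and -0.36, with Sparc at 0.14. Ranges lay entirely below WT control for Olfml3, Selplg and Slc2a5 on PLX3397 (4.11% of all genes) and for these 3 and Tmem119 on PLX5622 (3.86%). Unadjusted 95% intervals lay below 0 for Olfml3 on PLX3397 (-0.66 to -0.06) and PLX5622 (-0.74 to -0.14), and for Tmem119 on PLX5622 (-0.85 to -0.05). Selplg on PLX5622, with a 95% interval of -0.98 to -0.13, passed only where the compared groups were fitted alone (edgeR adjusted p = 0.0425).

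Set against G793A on control chow, the values ran from -0.40 (Crybb1) to -0.06 (Sparc) on PLX3397 (0.00617% of all genes called) and from -0.55 (Crybb1) to -0.06 (Sparc) on PLX5622 (0% called; 2639 genes at an unadjusted p under 0.05), and none of the 7 passed. The PLX5622 count over all genes was 234 in DESeq2 and 980 without G793A control replicate 2, and the PLX3397 count, 1 gene (Pdgfra, a marker of oligodendrocyte precursors), became 20 in DESeq2 and 23 without that library. None of the 7 was among the calls in any of these. Ranges lay below G793A control for Olfml3 and Slc2a5 on PLX3397 (2.12% of all genes) and for Tmem119, Olfml3 and Selplg on PLX5622 (2.83%). Without G793A control replicate 3 the Crybb1 values were 0.01 and -0.14.

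Between the genotypes on the same inhibitor, 5 of the 7 were higher in G793A on PLX3397 (0.932% of all genes were) and the same 5 on PLX5622 (1.09%). The log2 differences on PLX3397 were 1.83 ± 0.20 for Tmem119, 1.22 ± 0.14 for Olfml3, 1.94 ± 0.21 for Selplg, 1.52 ± 0.22 for Slc2a5 and 1.97 ± 0.31 for Crybb1, with edgeR adjusted p of at most 4.10e-04. On PLX5622 they were 2.22, 1.24, 2.58, 1.90 and 2.38. Ltc4s differed by 0.92 ± 0.28 on PLX3397 (edgeR adjusted p = 0.226), with ranges that did not overlap, and by 0.53 ± 0.29 on PLX5622 (adjusted p = 0.964). Sparc differed by 0.35 ± 0.19 and 0.31 ± 0.19 and did not pass.

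The difference between the genotypes' responses was tested as an interaction: the change on an inhibitor in G793A minus that in WT. It passed for the same 5 genes with each inhibitor, where 0.549% of all genes passed as higher for PLX3397 and 0.802% for PLX5622. For PLX3397 the values were 1.97 ± 0.27 for Tmem119 (edgeR adjusted p = 4.70e-04), 1.39 ± 0.20 for Olfml3 (6.06e-04), 2.24 ± 0.29 for Selplg (2.77e-04), 1.71 ± 0.31 for Slc2a5 (0.00364) and 1.92 ± 0.42 for Crybb1 (0.0302). The Crybb1 call was the weakest and was lost without each of 9 libraries taken singly, with an adjusted p of up to 0.111 without WT control replicate 1. For PLX5622 the values were 2.37, 1.41, 2.88, 2.09 and 2.33, with edgeR adjusted p from 6.24e-06 for Selplg to 0.00433 for Crybb1. For Ltc4s they were 0.87 ± 0.40 and 0.48 ± 0.40, and for Sparc 0.16 ± 0.27 and 0.12 ± 0.27. The Sparc intervals, -0.41 to 0.73 and -0.45 to 0.69, lie below the values of the 5 genes.

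The inhibitors were given at different chow doses, and their values stand side by side above. Within WT, PLX5622 minus PLX3397 was -0.80 ± 0.24 for Selplg (edgeR adjusted p = 0.816), -0.56 for Crybb1, -0.51 for Tmem119, -0.38 for Slc2a5, -0.10 for Olfml3, 0.16 for Ltc4s and 0.04 for Sparc. None of the 7 and no other gene passed (0% called; 664 genes at an unadjusted p under 0.05, and 12 passed in DESeq2 and 0 in limma-voom). Tmem119 and Selplg were among the 664. Selplg passed without WT PLX5622 replicate 1, the library with the cerebellar transcript (-1.21, adjusted p = 0.0350). Within G793A the values ran from -0.24 (Ltc4s) to 0.01 (Slc2a5), and none of the 7 passed (0.00617% of all genes did).

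Relatives of the 7 genes, taken from lists by family and pathway, mostly kept their levels in WT on either inhibitor. Of 7 other genes of the SPARC family, none passed on either inhibitor, with list medians of 0.07 and 0.02. Sparcl1 (hevin), the most abundant at 1979 CPM in WT control, had log2 fold changes of 0.04 and 0.02, Spock2 0.09 and 0.04, and Spock1 0.24 and 0.19. Of 8 olfactomedin-domain genes none passed (medians -0.02 and 0.01), with Olfm1, a neuronal secreted glycoprotein, at 0.02 and 0.10, Olfm2 at 0.02 and 0.03, and Olfm3 at -0.11 and -0.06. Of the selectins and the enzymes that modify PSGL-1, 7 of 10 could be tested and none passed (medians -0.13 and -0.21). Among them the tyrosine sulfotransferases Tpst1 (0.01 and 0.05) and Tpst2 (0.01 and 0.21) and the sialyltransferase St3gal4 (-0.13 and -0.21) had values near 0.

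In 3 other lists single genes fell. The list medians were -0.04 and 0.03 for transport, -0.16 and -0.21 for crystallins, and -0.36 and -0.27 for the leukotriene pathway. Of 13 genes of glucose and fructose transport and phosphorylation, Hk2, a hexokinase, fell from 4.43 ± 0.67 CPM to 2.94 ± 0.21 on PLX3397 (log2 -0.59 ± 0.13, edgeR adjusted p = 0.00962) and 2.56 ± 0.11 on PLX5622 (-0.79 ± 0.13, adjusted p = 3.18e-04). Of 7 crystallin genes tested of 10, Cryba4, the neighbour of Crybb1 on chromosome 5, fell from 0.370 CPM to 0.0852 and 0.0470 CPM (-2.09 ± 0.53 and -2.94 ± 0.59, adjusted p = 0.0423 and 0.00475). At the depth of these libraries the inhibitor levels of Cryba4 are only a few counts, so the size of its fall is imprecise. Of 11 leukotriene pathway genes tested of 14, 2 passed on each inhibitor. Alox5ap, the protein that presents arachidonic acid to 5-lipoxygenase upstream of Ltc4s, fell from 2.93 ± 0.57 to 1.30 ± 0.21 and 1.21 ± 0.12 CPM (-1.18 ± 0.20 and -1.27 ± 0.20, adjusted p = 5.25e-04 and 1.84e-04). Pla2g4a, the cytosolic phospholipase that releases arachidonic acid, passed on PLX3397 only (-0.61, adjusted p = 0.0386) and was at -0.27 (adjusted p = 0.706) on PLX5622. Cysltr1, a receptor for the cysteinyl leukotrienes, passed on PLX5622 (-1.5, adjusted p = 0.00948) and was at -1.20 (adjusted p = 0.0568) on PLX3397. No gene of these 6 lists passed as higher.

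**Figure D4:**
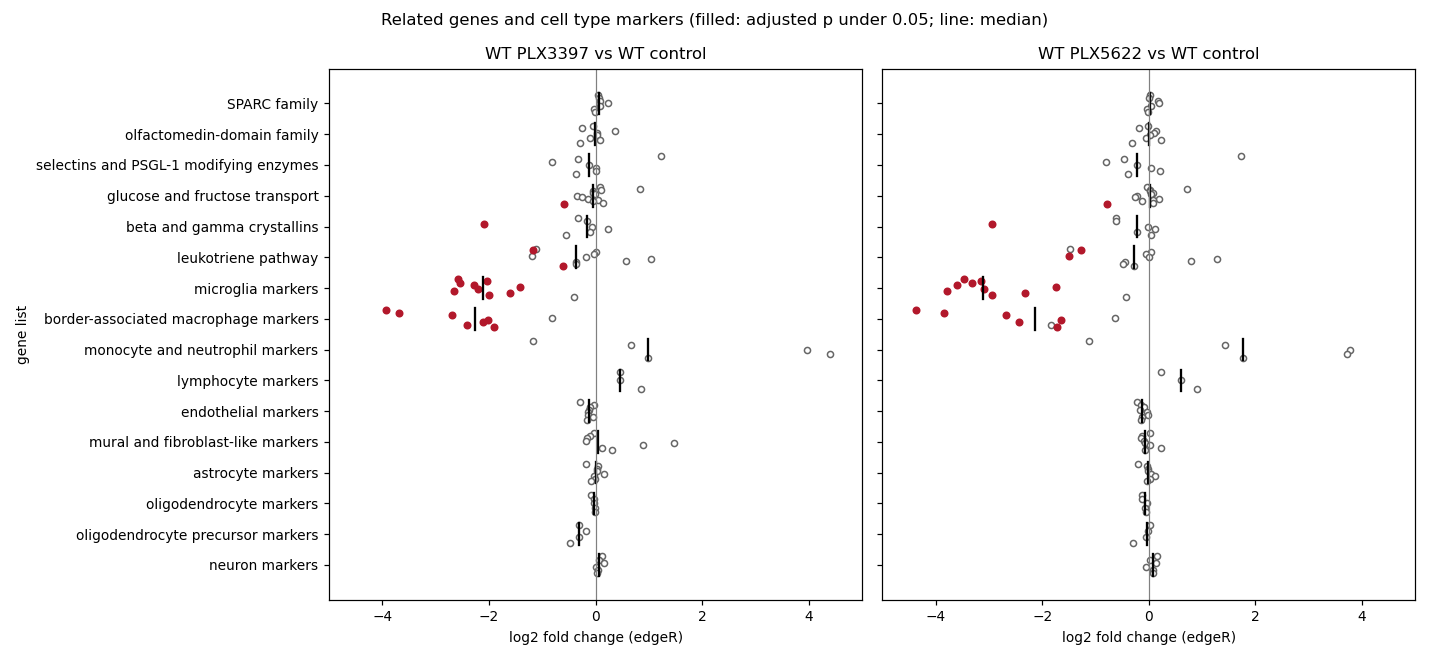
Log2 fold change (horizontal axis, edgeR) of each tested gene of 16 lists (vertical axis) in WT on PLX3397 (left) and on PLX5622 (right) against WT control; filled points passed an adjusted p of 0.05 and black lines are list medians. Filled points are in the microglia and border-associated macrophage lists and, 1 or 2 per list, in the transport, crystallin and leukotriene lists, and all lie below 0.

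Markers of the cells that could carry these transcripts were read in the same libraries. Of 10 microglia markers 9 fell on each inhibitor (medians -2.12 and -3.11), and Sall1, a microglial transcription factor that is also present in other brain cells, was at -0.41 and -0.42 (edgeR adjusted p = 0.523 and 0.489). Their summed level was 365 to 388 CPM in WT control, 92.5 to 129 on PLX3397 and 51.4 to 93.0 on PLX5622. In G793A the sum was 313 to 392 CPM on control chow, 277 to 330 on PLX3397 and 267 to 330 on PLX5622. Both G793A inhibitor groups thus lay entirely below WT control, as 4.11% of single genes did on PLX3397 and 3.86% on PLX5622. Of 8 markers of border-associated macrophages, the macrophages of meninges and vessels, 7 fell on PLX3397 and 6 on PLX5622 (medians -2.26 and -2.13), and Mrc1 fell from 4.57 to 0.297 and 0.216 CPM. The part of these macrophages in the members' values was not tested. Of 5 monocyte and neutrophil markers tested of 6, and of 3 lymphocyte markers tested of 6, none passed, with medians of 0.98 and 1.78 and of 0.46 and 0.60. The monocyte and neutrophil markers summed to 0.867 to 1.49 CPM in WT control and to 1.03 to 10.2 CPM over both WT inhibitor groups. In G793A, where microglia markers were largely kept, they summed to 1.40 to 3.51 CPM on control chow, 1.53 to 8.98 on PLX3397 and 5.64 to 21.7 on PLX5622.

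Markers of other cells that make Sparc were read next. None of 8 astrocyte, 8 endothelial or 8 mural and fibroblast-like markers passed on either inhibitor, with list medians between -0.13 and 0.04. Astrocyte markers summed to 5620 to 5978 CPM in WT control, 5999 to 6524 on PLX3397 and 5388 to 6321 on PLX5622. Endothelial markers summed to 238 to 258 CPM in control, 220 to 238 on PLX3397 and 206 to 254 on PLX5622. On PLX3397 both sums lay only just outside the control range. The sums were not tested, and 6.12% of single genes lay entirely below control on PLX3397. The part of these cells in the level of Sparc was not tested. Oligodendrocyte and neuron markers did not pass. Of 4 oligodendrocyte precursor markers none passed in WT (medians -0.31 and -0.03). Their sum on PLX3397 was 128 to 139 CPM, all below the 159 to 179 CPM of WT control, as 6.12% of single genes were. On PLX5622 it was 148 to 171 CPM. Pdgfra, a receptor of these precursors, was at -0.30 ± 0.08 on PLX3397 in WT (edgeR adjusted p = 0.0716). In G793A on PLX3397 the sum was 94.8 to 143 CPM, all below the 158 to 162 CPM of G793A control, as 2.12% of single genes were. Pdgfra passed as lower there, at -0.54 ± 0.08 against WT control (edgeR adjusted p = 0.0154) and -0.54 ± 0.08 against G793A control (adjusted p = 0.00678).

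The genes most like each member were found by the root-mean-square difference of log2 levels, each centred on its WT control mean, over the 23 libraries. This is a description with no test, and the libraries are shared by all genes. Nearest to Tmem119 were C1qb (0.162), Laptm5 (0.177) and Csf1r (0.192). Nearest to Selplg were Itgam (0.201), Pld4 (0.229) and Gpr34 (0.230), and nearest to Slc2a5 were Nckap1l (0.248), Laptm5 (0.285) and Ly86 (0.286). Olfml3 was nearest to Ikzf1 (0.185), Fcgr1 (0.186) and Ptpn6 (0.201), whose log2 fold changes were -1.39 to -1.64 on PLX3397 and -1.64 to -1.91 on PLX5622. Crybb1 was nearest to Fcer1g (0.302), C1qb (0.316) and Fcgr3 (0.324). All of these genes are known from myeloid or other blood cells.

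Ltc4s and Sparc shared none of these nearest genes. The cell types of theirs were not examined, so no contrast of cell type with the genes above is drawn. Ltc4s was nearest to Parvg (0.311), Anxa3 (0.326) and F11r (0.329), with log2 fold changes of -0.77 to -0.89 on PLX3397 and -0.78 to -0.88 on PLX5622. Sparc was nearest to Cd83 (0.173), Agt (0.173) and Paqr6 (0.174). Among the 7 themselves, Tmem119 lay closest to Crybb1 (0.262) and Selplg (0.264). Ltc4s lay closest to Olfml3 (0.551) and then Sparc (0.622), and Sparc was 1.66 from Selplg, the gene that fell furthest.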

How the data were processed

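Bulk brain RNA of 23 libraries in 6 groups was made into stranded, oligo-dT selected libraries and sequenced on a NovaSeq instrument, per the labels' protocols. The authors deposited estimated counts per gene symbol, not scaled to library size (45.3% are not whole), and a table of variance-stabilised values on a log2 scale, used only as an alternative. Tools listed in the submitters' processing notes are kallisto 0.46.1, FastQC 0.11.9 and DESeq2 1.26.0, with build GRCm39. No source used here says how transcripts were summed to genes.

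The 7 genes, the gene lists and the tests were chosen with earlier results of these data known. Counts were rounded; 1 entry with a blank name (0.00828% to 0.0151% of counts) was left out. Genes were filtered with filterByExpr (minimum count 10, minimum total 15), scaled with TMM and fitted in a single edgeR 4.0.16 quasi-likelihood model (robust; R 4.3.3) with a term per group. Adjusted p-values are Benjamini-Hochberg over 16209 genes, with a threshold of 0.05, and intervals are 95%. Ratios within a library used 0.1 CPM added to each gene.

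Named beside the 7 are Csf1r and, per list, at most 4 genes that passed in a WT inhibitor comparison, by smallest p, or, where none passed, the 3 most abundant. For likeness, the 3 nearest genes at a mean of 1 CPM or more are named. Alternatives were DESeq2 1.42.0, limma 3.58.1 (voom, and on the deposited log2 values), RLE scaling, other filters, a fit that is not robust, a replicate block, the compared groups alone, a length trend removed (longest coding transcript, GENCODE on GRCm38, 98.0% of genes matched by symbol), leaving out each library and, chosen after seeing the data, leaving out the pair with the cerebellar transcript. The labels give no batch. Replicates differed beyond sampling noise in every group (chi-square per degree of freedom 6.05 to 76.4), so none was counted as a duplicate. Depth was 26.3 to 48.2 mega-counts per library, and precision is lowest for Ltc4s, Crybb1 and Slc2a5.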

Additional observations from a re-analysis of the deposited data

Results flagged for a closer look

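Of 35 groups of 4 libraries tested with Dixon's gap ratio (7 genes, 5 groups; chance alone exceeds the 95% limit in about 1 in 20), 2 had a library far from the others, and both were the same library. In G793A control replicate 3, Crybb1 was at 5.06 CPM against 2.02 to 2.23 in the other 3 libraries (gap ratio 0.929), and Ltc4s was at 3.15 CPM against 1.59 to 1.64 (gap ratio 0.964). Short transcripts had a median of 0.38 log2 units and long transcripts (at least 4000 bases, 5099 genes) of -0.13 in this library, relative to the mean over all libraries. The part of this in either value was not tested.

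The response to the inhibitors differed between WT and G793A by the interaction test (edgeR, adjusted over all genes) for 5 of the 7 genes. Of all genes, 0.549% passed as higher for PLX3397 and 0.802% for PLX5622. With PLX3397 the log2 difference was 1.97 for Tmem119, 1.39 for Olfml3, 2.24 for Selplg, 1.71 for Slc2a5 and 1.92 for Crybb1. With PLX5622 it was 2.37 for Tmem119, 1.41 for Olfml3, 2.88 for Selplg, 2.09 for Slc2a5 and 2.33 for Crybb1. In each case the fall on the inhibitor was larger in WT, as the positive sign states. The Crybb1 call for PLX3397 (edgeR adjusted p = 0.0302) depended on single libraries, and was 0.111 without WT control replicate 1. On the deposited log2 values (limma) the PLX3397 calls of Crybb1 (adjusted p = 0.164) and Slc2a5 (0.294) were lost, as was that of Crybb1 for PLX5622 (0.0705).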

How the results depend on the processing

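The number of the 7 genes past the threshold stayed within 1.5 times its value under 246 alternatives and moved under 4. Their log2 fold changes kept direction and side of the threshold under 1684 alternatives, lost the call under 14, gained it under 6 and reversed under 37. The 5 genes that fell in WT passed under every alternative run for WT on either inhibitor. Counts of all genes in the comparisons with few calls moved. For G793A on PLX3397 against WT control (1 gene) they were 2 with RLE scaling, without a filter, with a filter at 1 CPM and on the deposited log2 values, 25 with DESeq2, 3 with limma-voom, and 0 with a replicate block, with the length trend removed and with the compared groups alone. For G793A on PLX5622 against WT control (0) they were 8 with DESeq2, 1 with limma-voom, 1 on the deposited log2 values and 3 with the compared groups alone, where 1 of the 7 genes, Selplg, passed. Against G793A control, PLX3397 (1) gave 20 with DESeq2 and 0 on the deposited log2 values and with the compared groups alone, and PLX5622 (0) gave 234 with DESeq2. PLX5622 against PLX3397 in WT (0) gave 1 without a filter, 12 with DESeq2, 1 with the length trend removed and 6 without the pair of libraries with the cerebellar transcript, where 1 of the 7, Selplg, passed. In G793A (1) it gave 2 with DESeq2 and 0 with the length trend removed and with the compared groups alone. The interaction for PLX3397 (90) gave 57 on the deposited log2 values, with 3 of the 7 genes rather than 5: Slc2a5 (adjusted p = 0.294) and Crybb1 (0.164) were lost. On those values Slc2a5 between the genotypes on PLX3397 (adjusted p = 0.0817) and the Crybb1 interaction for PLX5622 (0.0705) were lost too, and with the compared groups alone the Crybb1 interaction for PLX3397 (0.0516). The cause was not tested in any of these.

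Leaving out each library in turn gave 181 to 216 genes for PLX3397 and 220 to 278 for PLX5622 in WT, with 5 to 6 of the 7 in each. It gave 0 to 375 for G793A control against WT control, the highest without G793A control replicate 2. Against WT control, G793A on PLX3397 gave 0 to 4 and on PLX5622 0 to 1. Against G793A control they gave 0 to 23 and 0 to 980, again highest without G793A control replicate 2. PLX5622 against PLX3397 gave 0 to 7 in WT (0 to 1 of the 7) and 0 to 1 in G793A. The interactions gave 68 to 93 (4 to 5 of the 7) and 115 to 144.

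Directions reversed only for values that had not passed. In G793A control against WT control, Crybb1 and Ltc4s were -0.075 and -0.022 with limma-voom, -0.00253 and -0.00408 on the deposited log2 values, and -0.15 and -0.17 with the length trend removed. Without the pair with the cerebellar transcript, PLX5622 minus PLX3397 for Sparc was -0.13 in WT and -0.028 in G793A. Leaving out libraries, Crybb1 in G793A control ran from -0.36 to 0.18 and Ltc4s from -0.25 to 0.21. In G793A on PLX3397 against WT control Ltc4s ran from -0.26 to 0.037 and Sparc from -0.051 to 0.29, and on PLX5622 Sparc from -0.049 to 0.29. Against G793A control, PLX3397 gave Crybb1 -0.53 to 0.013, Ltc4s -0.27 to 0.12 and Sparc -0.20 to 0.057, and PLX5622 gave Sparc -0.19 to 0.060. PLX5622 minus PLX3397 gave Olfml3 -0.25 to 0.060, Ltc4s -0.16 to 0.45 and Sparc -0.13 to 0.12 in WT, and Slc2a5 -0.063 to 0.086 and Sparc -0.060 to 0.040 in G793A. The Sparc interaction for PLX5622 ran from -0.034 to 0.30, and the Tmem119 to Crybb1 ratio from -0.094 to 0.083 and from -0.19 to 0.13.

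With 1 CPM in place of 0.1 added to each gene, 16 of the 22 ratios passed (exact permutation tests, adjusted 0.0393). The smallest exact p allowed is 0.0286, and after adjustment it passes only if enough of the 22 ratios reach it. Passing here thus reflects more ratios at that limit and not larger differences. The Sparc to Tmem119 difference on PLX3397 passed although it shrank from 1.97 to 1.76. On PLX3397 the values were 1.76 (Sparc to Tmem119), 1.96 (Sparc to Selplg), 1.16 (Sparc to Slc2a5), -0.48 (Tmem119 to Olfml3), -0.69 (Tmem119 to Crybb1) and -1.35 (Tmem119 to Ltc4s). On PLX5622 Sparc gave 2.25 (Tmem119), 1.40 (Olfml3), 2.69 (Selplg), 1.44 (Slc2a5) and 1.29 (Crybb1), and Tmem119 gave -0.85 (Olfml3), 0.44 (Selplg), -0.81 (Slc2a5), -0.96 (Crybb1) and -1.87 (Ltc4s). In WT on the inhibitors Crybb1 is itself under 1 CPM, so the larger addition shrinks its fall. Slc2a5 averaged 1.20 CPM in WT on PLX3397 and 0.908 on PLX5622, and Ltc4s 0.928 and 1.03. Their falls shrink in the same way.

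Same-numbered libraries did not deviate together as a set (median correlation of residuals 0.00955 over 55 pairs, against 9.26e-04 over 165 pairs of different number). The medians gave no sign that the numbers pair samples, but a median cannot exclude pairing of some of them. The replicate block gave 214 genes for PLX3397 and 249 for PLX5622 in WT, changed no call of the 7, and turned the G793A value of Slc2a5 for PLX5622 minus PLX3397 from 0.01 to -2.03e-04. Depth limits Ltc4s and Crybb1 most.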
